A study of Mus musculus with 8 samples.

Results

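Keratin-associated proteins are small proteins, rich in cysteine or in glycine and tyrosine, that fill the space between the keratin filaments of the hair shaft and bind them into a hard fibre. They are made late, in keratinizing cells of the hair cortex and cuticle above the matrix of the bulb, so their RNA marks cells that have started to build hair. In mouse their genes lie in a few clusters of short, similar copies, and the first shafts form in the skin around birth.

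The genes described here are 7 of them: Krtap14, Krtap15, Krtap16-3, Krtap19-3, Krtap19-9b, Krtap5-2 and Krtap6-3. They were measured by 9 probe sets, since Krtap16-3 and Krtap6-3 have a pair each, out of 12394 genes with a probe set of a single symbol. They were chosen on their scores in these same arrays. Krtap14, Krtap15, Krtap16-3, Krtap19-3 and Krtap19-9b were picked from genes that scored lower without p53 than in control skin, and Krtap5-2 from those lower without both proteins. The choice of Krtap6-3 is not explained in the sources used here. Low scores after p53 loss, and the small spread that lets a gene pass a test on 8 arrays, are thus what the choice used, and the values of these genes are given as a description with no test.

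The data were 8 microarrays of whole skin taken after birth from FVB mice, an inbred strain. Each array held RNA pooled from 3 newborn animals of 1 genotype, and each genotype had 2 arrays. The 4 genotypes were control, pRb-/-;p53+/+ (pRb_null below), pRb+/+;p53-/- (p53_null) and pRb-/-;p53-/- (double_null), with the tumour suppressors inactivated somatically in stratified epithelia; the driver of the recombination and the exact genotype of the controls are not given in the sources used here. pRb restrains entry into S phase and p53 acts in arrest and cell death after damage. The deposited values are standardized: within a probe set, the 8 arrays have mean 0 and SD 1. A difference of 1 is therefore 1 SD of that probe set, and neither levels nor fold changes can be given, nor can a marker be called present or absent. In whole skin, fewer hair-forming cells and less RNA per cell cannot be told apart. The labels do not tell whether different pools were used for the 2 arrays of a genotype. A p-value therefore reflects only how far the arrays spread, which may be technical, and precision is limited by how few there are.

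The members fall into 2 places in the genome. By RefSeq order (GRCm38.p6), 6 lie on chromosome 16 and Krtap5-2 on chromosome 7. From Krtap14 to Krtap6-3, 17 protein-coding genes follow each other on chromosome 16, 13 of them with a Krtap symbol. Krtap14 and Krtap15 are next to each other, as are Krtap19-9b and Krtap16-3. The last 100 bases before the annotated start are shown for 5 members, because each of the 7 holds the same short motif there although they lie in 2 clusters. Sequences are from RefSeq, 5′ to 3′ on the strand of the gene, and capitals mark GTATANAAG, which contains a TATA box form, and CTTTGA, the core bound by LEF and TCF factors of Wnt signalling.
Krtap15, chr16:88828909-88829008, plus strand: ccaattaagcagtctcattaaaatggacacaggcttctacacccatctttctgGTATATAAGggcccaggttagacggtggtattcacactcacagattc
Krtap19-3, chr16:88878039-88878138, minus strand: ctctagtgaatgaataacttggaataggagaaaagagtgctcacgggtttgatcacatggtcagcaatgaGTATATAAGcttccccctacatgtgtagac
Krtap19-9b, chr16:88932265-88932364, minus strand: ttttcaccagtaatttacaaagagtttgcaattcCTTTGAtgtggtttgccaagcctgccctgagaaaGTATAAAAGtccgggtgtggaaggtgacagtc
Krtap16-3, chr16:88962874-88962973, minus strand: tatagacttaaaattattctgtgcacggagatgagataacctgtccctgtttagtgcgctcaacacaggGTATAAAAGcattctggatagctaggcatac
Krtap5-2, chr7:142176006-142176105, minus strand: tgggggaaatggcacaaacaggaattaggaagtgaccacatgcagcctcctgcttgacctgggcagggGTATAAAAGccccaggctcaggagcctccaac

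All motifs were searched on both strands of the 250 bases before each start. GTATANAAG was written down after reading the members' promoters. It was found in all 7 members, in 18 of 44 other Krtap promoters and in 0.761% of 32851 promoters of the same length. Counted back from the annotated start, its first base was at −32 to −30 in 6 members and at −47 in Krtap15. TATAAA, which overlaps GTATANAAG where N is A, was found in 4 members, in 37 of the 44 and in 12.4% of all promoters. CTTTGA was found in 5 members, the exceptions being Krtap5-2 and Krtap6-3 (of the stretches shown, that of Krtap19-9b holds it), in 7 of the 44 and in 13.8% of all promoters. TTTNGCGC, a form of the site of the E2F factors that pRb restrains, was found in 0 of the 7 members, 0 of the 44 and 1.13% of all promoters. These are matches of letters, and no binding was measured.

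Krtap14 and Krtap15, neighbours that encode high-sulfur proteins of the shaft, scored high in control and low in both genotypes without p53. Krtap14 scored 1.38 and 1.16 on the control arrays, 0.55 and 0.50 on those of pRb_null, −0.96 and −0.74 on those of p53_null, and −0.98 and −0.89 on those of double_null. Krtap15 scored 1.22 and 1.20 on the control arrays, 0.58 and 0.63 on those of pRb_null, −0.74 and −0.95 on those of p53_null, and −0.96 and −0.98 on those of double_null. Control was highest and pRb_null second in both genes, with no overlap. The arrays of p53_null and double_null overlapped in Krtap14 and lay side by side in Krtap15. The difference from control was −2.12 ± 0.12 (SE) in p53_null and −2.20 ± 0.12 in double_null for Krtap14. For Krtap15 it was −2.06 ± 0.08 in p53_null and −2.18 ± 0.08 in double_null.

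Krtap19-3 and Krtap19-9b belong to the high glycine and tyrosine proteins, small proteins of the cortex. Krtap19-3 scored 1.43 and 1.25 on the control arrays, 0.39 and 0.44 on those of pRb_null, −0.85 and −0.85 on those of p53_null, and −0.87 and −0.93 on those of double_null. Krtap19-9b scored 1.26 and 1.23 on the control arrays, 0.48 and 0.62 on those of pRb_null, −0.74 and −0.80 on those of p53_null, and −1.06 and −0.99 on those of double_null. The same order held in both genes, and the double_null arrays were below both p53_null arrays, within the spread in Krtap19-3 (difference −0.05 ± 0.07) and beyond it in Krtap19-9b (−0.26 ± 0.06). Krtap19-3 had the largest fall in p53_null among the members' means over probe sets, at −2.19 ± 0.07 from control, and one of −0.93 ± 0.07 in pRb_null.

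Krtap16-3 was read by 2 probe sets. The first, 1425431_at, scored 1.20 and 1.27 on the control arrays, 0.56 and 0.60 on those of pRb_null, −0.89 and −0.93 on those of p53_null, and −0.89 and −0.91 on those of double_null. The second, 1427549_s_at, scored 1.23 and 1.10 on the control arrays, 0.66 and 0.68 on those of pRb_null, −0.77 and −0.84 on those of p53_null, and −1.07 and −0.98 on those of double_null. Both put control first and pRb_null second. They differ in the last step, since p53_null and double_null overlapped in the first probe set and were apart, with double_null lower, in the second. The suffix _s_at marks a probe set whose probes match more than 1 transcript, so the second may read other copies as well.

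Krtap6-3, another high glycine and tyrosine gene and the last of the members along the cluster, was the least even. Its probe set 1427842_at scored 1.31 and 0.96 on the control arrays, 0.96 and 0.38 on those of pRb_null, −0.92 and −0.90 on those of p53_null, and −1.05 and −0.73 on those of double_null. Its probe set 1452575_at scored 0.68 and 1.58 on the control arrays, 0.92 and −0.03 on those of pRb_null, −0.92 and −1.36 on those of p53_null, and −0.66 and −0.23 on those of double_null. Control and pRb_null overlapped in both, unlike in the other members. The difference of double_null from p53_null was 0.02 ± 0.26 by the first and 0.69 ± 0.51 by the second, above 0 in both and with wide errors.

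Krtap5-2, the only member on chromosome 7, encodes an ultra-high sulfur protein, a group known from the hair cuticle. It scored 1.04 and 1.32 on the control arrays, 0.42 and 0.14 on those of pRb_null, −0.06 and −0.09 on those of p53_null, and −1.67 and −1.09 on those of double_null. The 4 genotypes did not overlap and formed a staircase, with p53_null just below pRb_null and far above double_null. The difference from control was −1.26 ± 0.25 in p53_null and −2.56 ± 0.25 in double_null, and the difference of double_null from p53_null was −1.30 ± 0.25.

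**Figure D1:**
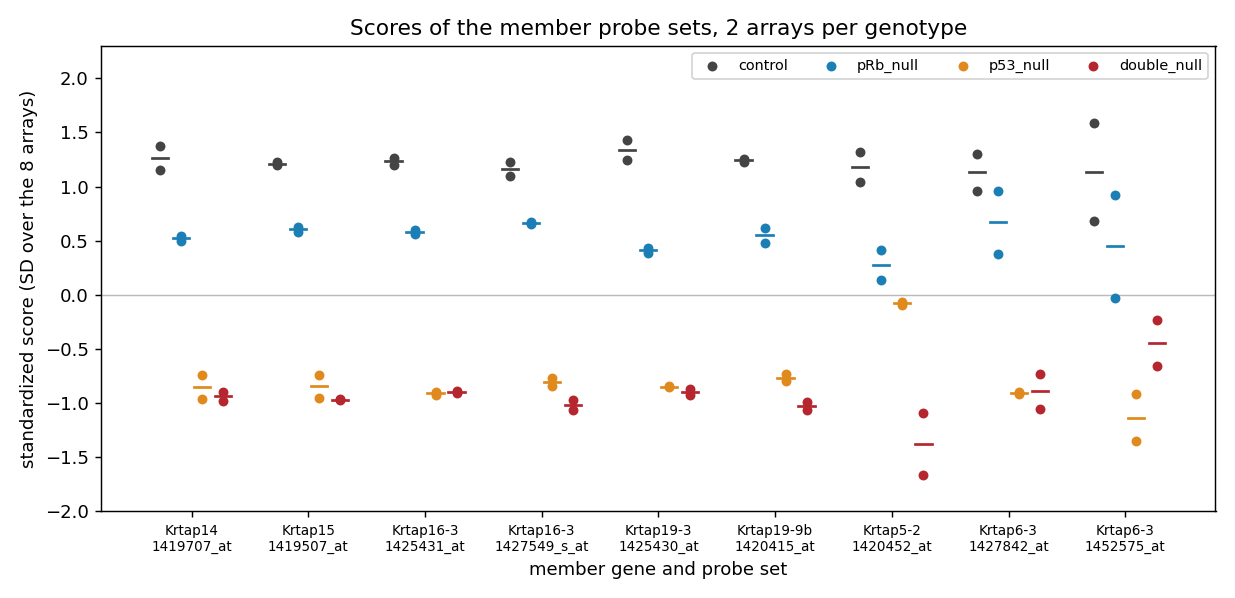
Standardized score (vertical axis, in SD over the 8 arrays) of the 9 member probe sets (horizontal axis), with 1 point per array and a short line at the mean of each genotype. Points of p53_null and double_null sit together near −0.9 in most probe sets, while Krtap5-2 has p53_null near 0 and double_null down to −1.67.

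Across the members, 9 of 9 probe sets were lower in both p53_null arrays than in both control arrays, where 28.9% of all 22626 tested probe sets were, and 9 of 9 were so in double_null, where 26.2% were. These contrasts chose the members, so nothing is read from the counts. In pRb_null, 7 of 9 were below both control arrays, against 18.4% of all probe sets. The exceptions were the pair of Krtap6-3. Averaged over each gene's probe sets, the median difference from control over the 7 members was −0.69 in pRb_null (range −0.93 to −0.57), −2.06 in p53_null (−2.19 to −1.26) and −2.20 in double_null (−2.56 to −1.80). Over all tested probe sets the medians were 0.07, −0.16 and −0.01. Setting double_null against pRb_null, the members' median was −1.57 (−1.65 to −1.23), and against p53_null it was −0.10 (−1.30 to 0.36). These comparisons share arrays with each other and are not independent of the choice.

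How far each single loss stood on the way from control to double_null can be given as a percent, which a linear rescaling of a probe set leaves unchanged. It is unknown if logs were taken before standardizing, and the percents would differ between a log and a linear scale. The median over the 9 probe sets was 96.1% for p53_null and 30.7% for pRb_null. Krtap5-2 was the lowest for p53_null at 49.2%, and the other 8 probe sets ran from 88.6% in Krtap19-9b to 143.9% in the uneven probe set of Krtap6-3. For pRb_null the range was narrower, from 22.8% to 43.5%, with Krtap5-2 at 35.4%. Most other members were picked for low scores in p53_null and Krtap5-2 for those in double_null, so its place in p53_null is part of the choice.

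The members resembled each other closely over the 8 arrays, which the choice of genes with like scores and small spread itself brings about. Pearson's r between probe sets of different members had a median of 0.973 over 34 pairs and ran from 0.674 to 0.997. The highest was between Krtap15 and Krtap16-3 and the lowest between Krtap5-2 and Krtap6-3. The 2 probe sets of Krtap16-3 had an r of 0.993 and those of Krtap6-3 one of 0.889. These points share 8 arrays and 4 genotypes, and no p is given. The family consists of similar copies, so a probe set may also take up RNA of its relatives. Probe and transcript sequences were not used here, and the part of cross-hybridization in this likeness was not tested. Krtap5-2, from another cluster, had r from 0.674 to 0.885 with the others, the lowest with 1452575_at of Krtap6-3. That probe set, of a gene on chromosome 16, had r from 0.847 to 0.887 with the other members there, so lower r was not particular to Krtap5-2. Outside the members, pairs of probe sets for the same gene were less alike, with r of 0.685 for Krtap12-1, 0.635 for Krtap5-1 and −0.142 for Krtap19-1.

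The rest of the family is what was left once the members were taken out. It comprised 22 probe sets of 19 other Krtap genes, and most were lower where p53 was lost. Most members were picked for low scores in p53_null and Krtap5-2 for those in double_null. Taking them out may have lowered the counts given below, which are not independent of the choice. In double_null, 13 of the 22 fell against control at an adjusted p under 0.05 by limma's ordinary test, where 0.526% of all probe sets did, and 0 rose. At an unadjusted p under 0.05, 17 of 22 were lower, against 9.93% of all probe sets. Their median difference was −2.29, against −0.01 over all probe sets. Those with the smallest p were Krtap6-5 (−2.29 ± 0.06, adjusted p = 0.012), Krtap13-1 (−2.29 ± 0.11, adjusted p = 0.025) and Krtap4-2 (−2.42 ± 0.13, adjusted p = 0.028). With the probe sets of a gene averaged, Krtap28-13 (−2.49 ± 0.24), Krtap9-3 (−2.44 ± 0.18) and Krtap4-16 (−2.43 ± 0.17) had the lowest differences. Of these 3, Krtap28-13 did not pass (adjusted p = 0.052). The highest were Krtap13 (0.06 ± 0.79, adjusted p = 0.98), Krtap19-1 and Krtap5-1 (−1.48 ± 0.70 and −1.51 ± 0.85 in its pair, neither called). The pair of Krtap19-1 disagreed, with 1.44 ± 0.63 (adjusted p = 0.33) in 1427800_at and a called difference of −2.30 ± 0.21 (adjusted p = 0.045) in 1427801_at. The 13 calls rest on the full set of arrays: leaving out any array gave 0 or 1, and the replicate number as a block, quantile normalization, the moderated test and a fit of only the 2 genotypes each gave 0. At an unadjusted p the count stayed at 16 or 17 when single arrays were dropped.

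In p53_null, 1 of the 22 other probe sets fell at an adjusted p under 0.05, where 0.084% of all probe sets did. This was Krtap6-5 (−1.80 ± 0.06, adjusted p = 0.021), chosen for mention after its value was seen. Genes low in p53_null had been taken out as members, so this count cannot be compared directly with that of double_null. At an unadjusted p under 0.05, 16 of 22 were lower, against 7.24% of all. The median difference was −1.72, against −0.16 over all probe sets, with Krtap19-4 at −2.44 ± 0.15 (adjusted p = 0.058) at one end and Krtap5-1 at 0.37 ± 0.85 (adjusted p = 0.88) at the other. The 1 call was lost with any array left out, with array medians set to 0, quantile normalization, the block, the moderated test and the fit of only 2 genotypes.

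In pRb_null, limma's ordinary test called 0 of the 22 against control, and 0% of all probe sets were called lower. The moderated test called 0 as well. At an unadjusted p under 0.05, 15 of 22 were lower and 0 higher, where 4.22% of all probe sets were lower. All 19 genes had a difference below 0 when their probe sets were averaged. The median over the 22 was −0.82, against 0.07 over all, with Krtap12-1 (1450535_at) lowest at −2.19 ± 0.58 (adjusted p = 0.36) and Krtap3-1 highest at −0.12 ± 0.19 (adjusted p = 0.87). That unadjusted count ranged from 11 to 16 when single arrays were dropped and was 4 with the moderated test.

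When p53 was lost in addition to pRb (double_null against pRb_null), 3 of 22 fell at an adjusted p under 0.05, where 0.256% of all probe sets did: Krtap6-5 (−1.81 ± 0.06, adjusted p = 0.028), Krtap13-1 (−1.84 ± 0.11, adjusted p = 0.041) and Krtap4-2 (−1.73 ± 0.13, adjusted p = 0.045). At an unadjusted p, 16 were lower, against 10.9% of all, and the moderated test gave 8. When pRb was lost in addition to p53 (double_null against p53_null), 0 of 22 were called by either limma test, where 0.0221% of all probe sets were called lower. At an unadjusted p by the ordinary test 9 were lower, against 5.92% of all, with a median of −0.58, while the moderated test gave 2 and leaving out array 1 of p53_null gave 3. The 3 calls against pRb_null became 0 or 1 with any array left out.

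**Figure D2:**
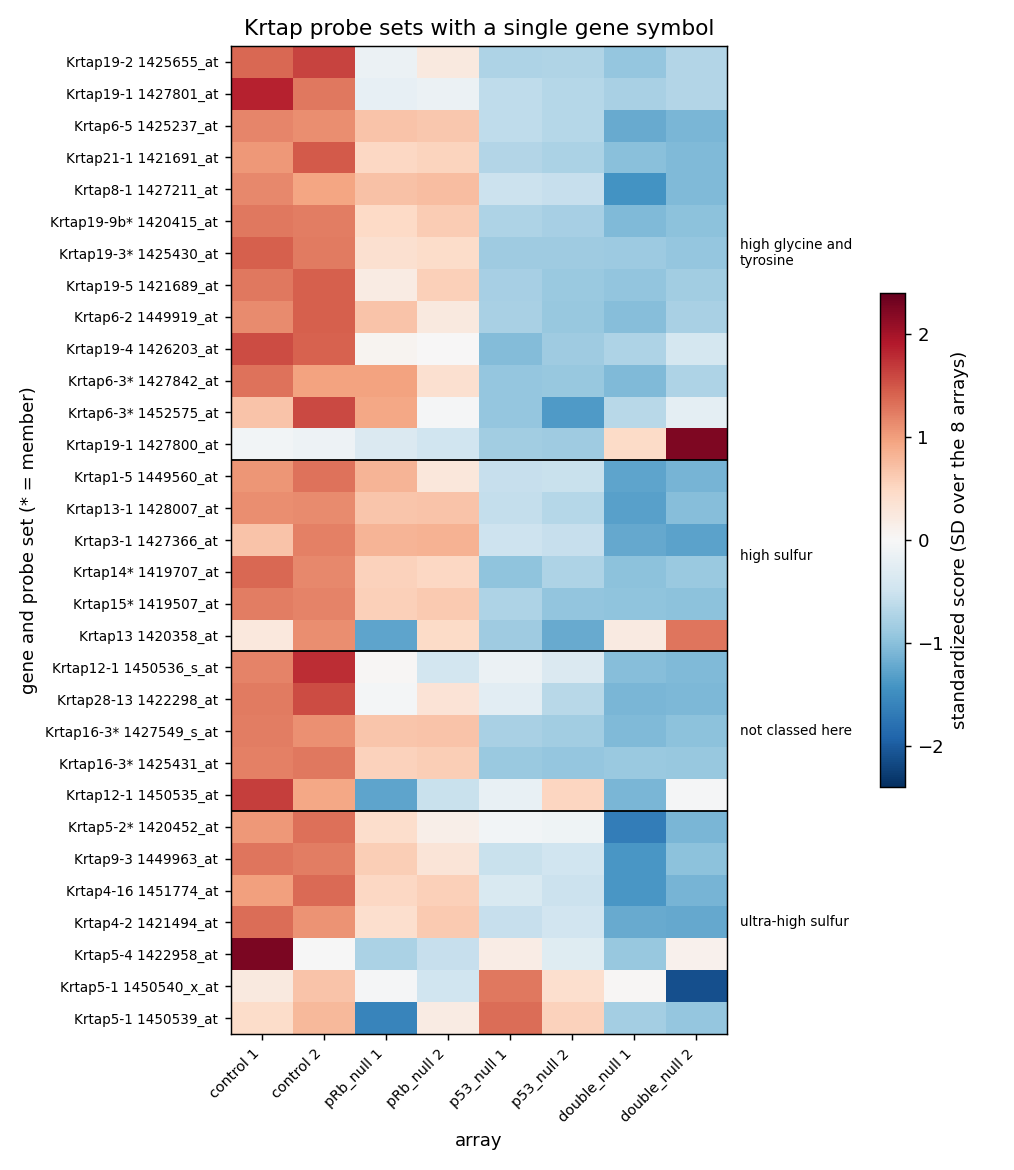
Standardized score (colour, in SD over the 8 arrays) of the 31 Krtap probe sets with a single symbol (rows, members marked with an asterisk) on the 8 arrays (columns), grouped by protein class. Control columns are red and the p53_null and double_null columns blue in most rows, and the exceptions are Krtap19-1 (1427800_at), Krtap13, Krtap5-1, Krtap5-4 and Krtap12-1 (1450535_at).

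The position of p53_null can also be described by protein class, with the same dependence on a log or linear scale. The classes were assigned from general knowledge after the values had been seen, so they are described with no test, over the 29 probe sets in which double_null lay more than 1 SD below control. In 8 probe sets of other high glycine and tyrosine genes, p53_null stood at a median of 96.0% of the way from control to double_null (range 69.1% to 117.6%). In 6 of other ultra-high sulfur genes the median was 68.7%, from −24.6% in Krtap5-1 to 77.7% in Krtap5-4. In 3 of other high-sulfur genes it was 72.3%, with Krtap1-5 at 72.3%, Krtap3-1 at 66.6% and Krtap13-1 at 76.3%. The members Krtap14 (96.1%) and Krtap15 (94.4%) stood higher, but they were picked for low scores in p53_null, so nothing is read from that gap. The member Krtap5-2, at 49.2%, lay between the uneven pair of Krtap5-1 and the other 4 probe sets of its class, which ran from 66.4% to 77.7%. The 4 probe sets that match several Krtap-like genes were not counted above. They had p53_null at 50.5% (with Krtap4-13), 59.5% (with Krtap9-1), 86.8% (with Krtap6-1) and 56.2% (Krtap3-2 and Krtap3-3).

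**Figure D3:**
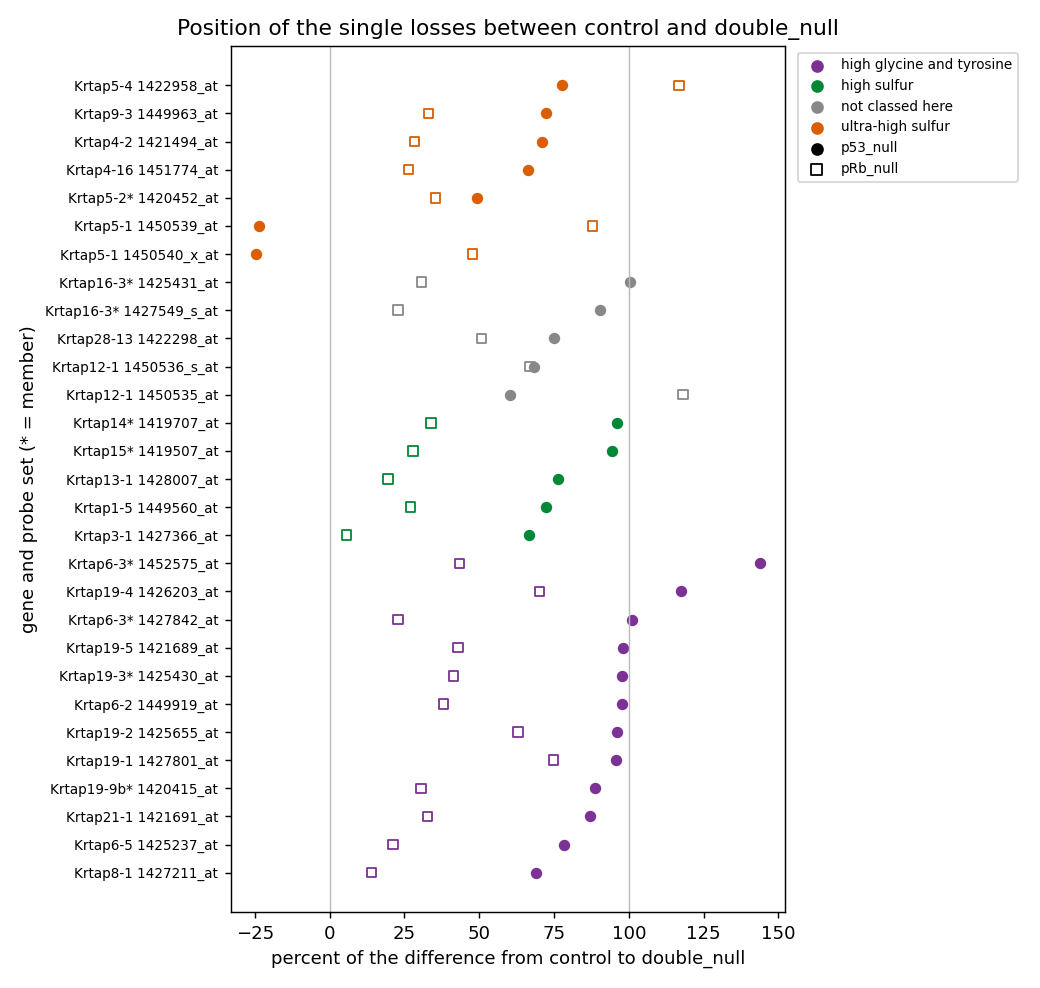
Position of p53_null (filled circles) and pRb_null (open squares) as a percent of the difference from control (0) to double_null (100), 1 row per Krtap probe set, coloured by protein class, members marked with an asterisk. Circles of the high glycine and tyrosine class run from 69.1 to 143.9 and overlap with those of the sulfur classes. Among the latter, Krtap14 (96.1) and Krtap15 (94.4), both picked for low scores in p53_null, lie farthest right. Squares lie left of the circles in most rows.

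Genes were also ranked by how like their scores were to the members' mean over the 8 arrays, as a description. The 10 highest r, from 0.981 to 0.991, belonged to Krtap21-1, Krtap6-2, Krtap6-5, Gprc5d, Krtap13-1, the shaft keratin Krt83, Krtap19-5, Gm10228, Bcr and Krtap9-3. The ranking uses the same scores as the tests, so the likeness of these 10 genes and any calls counted for them are not independent. Gm10228 lies in the same stretch of chromosome 16. Of 12386 genes compared, 82 had an r over 0.95, among them 10 Krtap genes and 7 keratins, so most of the 82 were neither. Gprc5d, an orphan receptor of keratinizing hair cells, scored 1.09 and 1.15 on the control arrays, 0.70 and 0.69 on those of pRb_null, −0.69 and −0.65 on those of p53_null, and −1.13 and −1.16 on those of double_null.

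Other genes of the follicle were set beside the members by lists chosen with earlier results of these data known. Of 12 shaft keratins, which form the filaments that the Krtap proteins bind, 9 fell in double_null at an adjusted p under 0.05 and 11 at an unadjusted one, with a median of −2.35. For this list and the next, the shares lower over all probe sets were 0.526% and 9.93% in double_null. In p53_null they were 0.084% and 7.24%. Krt35, an early keratin of the shaft, differed by −2.32 ± 0.10 (adjusted p = 0.020) and Krt34 by −2.50 ± 0.14 (adjusted p = 0.029). The other 7 called were Krt31, Krt32, Krt33a, Krt33b, Krt81, Krt83 and Krt86. Krt84 was the exception (2.22 ± 0.53, adjusted p = 0.16). In p53_null 0 of the 12 passed in limma's ordinary or moderated test, 11 were lower at an unadjusted p in the ordinary test, and the median was −1.52. Among 6 genes of the inner root sheath and companion layer, 4 fell in double_null (median −2.30) and 0 in p53_null (median −1.14), where 6 were lower at an unadjusted p in each case. They were Krt25 (−2.36 ± 0.13, adjusted p = 0.028), trichohyalin, Tchh (−2.33 ± 0.14, adjusted p = 0.029), Krt71 (−2.33 ± 0.14, adjusted p = 0.030) and Krt75 (−2.22 ± 0.18, adjusted p = 0.039). Against pRb_null, 0.256% of all probe sets were lower in double_null at an adjusted p under 0.05. Among the shaft keratins 1 of 12 was (Krt35), and in the root sheath list 3 of 6 were (Krt25, Tchh and Krt71). In the crosslinking and adhesion list below it was 1 of 8 probe sets, Gprc5d, singled out above by its likeness to the members. Among the matrix regulators below 2 of 35 probe sets were, for Msx2 and Cux1 (1425611_a_at). Leaving out any array reduced the calls lower in double_null from 119 to between 1 and 5 over all probe sets.

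Among 7 genes of fibre crosslinking and adhesion, read by 8 probe sets, 2 fell in double_null, where 0.526% of all probe sets did. They were Gprc5d (−2.26 ± 0.03, given with no p since it was also singled out above by its likeness to the members) and Padi3, an enzyme that converts arginine to citrulline in shaft proteins (−2.39 ± 0.16, adjusted p = 0.033). In p53_null 1 of the 8 probe sets fell, that of Gprc5d (−1.79 ± 0.03), where 0.084% of all probe sets did. In double_null S100a3, a calcium-binding protein of the cuticle, differed by −2.31 ± 0.23 (adjusted p = 0.055) and Padi1 by −2.10 ± 0.40 (adjusted p = 0.12). The rest of the list did not follow. Tgm1 differed by −0.62 ± 0.52 (adjusted p = 0.58) and Tgm3 by 0.06 ± 1.28 (adjusted p = 0.99). The pair of Dsc2 differed by 0.95 ± 0.88 and 0.17 ± 0.52 (adjusted p = 0.62 and 0.89). Regulators of the hair matrix were split. Of 35 probe sets for 21 of them, 2 fell in double_null and 16 were lower at an unadjusted p, against 0.526% and 9.93% of all. Msx2, a homeobox factor of the matrix, fell by 2.31 ± 0.13 (adjusted p = 0.029). Cux1 fell by 1.95 ± 0.16 (adjusted p = 0.040) in 1425611_a_at, while its other probe sets did not pass. Sox9 differed by −2.43 ± 0.25 (adjusted p = 0.055) in 1424950_at and by −2.01 ± 0.34 (adjusted p = 0.10) in 1451538_at. Vdr differed by −2.25 ± 0.29 (adjusted p = 0.075) in 1418176_at and by −1.40 ± 0.44 (adjusted p = 0.22) in 1418175_at. Hoxc13, the homeobox factor known to drive shaft keratin genes, differed by −2.52 ± 0.41 (adjusted p = 0.099), Foxn1, needed for shaft formation, by −2.08 ± 0.57 (adjusted p = 0.19), and Lef1 by −2.02 ± 0.68 (adjusted p = 0.25). Shh, the follicle growth signal, differed by 0.79 ± 0.38 (adjusted p = 0.37) in double_null. It differed by 2.03 ± 0.38 (adjusted p = 0.17) in p53_null and by 2.16 ± 0.38 (adjusted p = 0.26) in pRb_null.

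Markers of other cells of the skin were set beside these. Over 9 probe sets of basal keratinocyte markers, 0 were called in double_null. At an unadjusted p by the ordinary test 2 were lower, against 9.93% of all probe sets. The median score of that list ran from −0.34 to 1.26 in control and from −0.86 to −0.10 in double_null. Suprabasal markers (7 probe sets) had 0 calls and 0 lower or higher at an unadjusted p, with medians of −0.60 to −0.10 in control and 0.57 to 1.16 in double_null. The moderated test called 0 probe sets in any comparison. Dermal fibroblast markers (10 probe sets) had medians of −0.91 and −0.09 in control and 0.21 to 0.64 in the 4 arrays without p53. Mast cell markers (3 probe sets) had medians of 1.31 and 1.38 in p53_null, 0.47 and 0.22 in double_null and −1.05 to −0.73 in the other 4 arrays, and adipocyte markers (5 probe sets) were lowest in p53_null at −1.39 and −1.48, with 0 calls in either list. At an unadjusted p, 3 mast cell probe sets were higher than control in p53_null and 3 in double_null, against 7.32% and 8.72% of all. In p53_null 3 adipocyte probe sets were lower, against 7.24% of all, and in double_null 2 were higher. Endothelium markers (4 probe sets) had medians of −1.13 and −0.88 in control and 1.21 and 0.83 in double_null. There 3 were higher at an unadjusted p, against 8.72% of all probe sets, and 0 were called. Skeletal muscle markers (4 probe sets) had medians of −0.93 and −0.32 in control and 0.68 and 1.24 in pRb_null. There 3 were higher at an unadjusted p, against 6.38% of all probe sets, and 0 were called. Melanocyte markers, from cells that sit in the hair bulb, were below 0 in double_null only, with medians of −1.78 and −1.33 there and from 0.31 to 0.60 in the other 6 arrays, and Dct was called there (−2.02 ± 0.18, adjusted p = 0.045). The array's own 64 control probe sets had medians of −0.69 and −0.51 in the control arrays and −0.09 to 0.45 in the other 6, and the part of these lists and probe sets in the Krtap results was not tested.

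**Figure D4:**
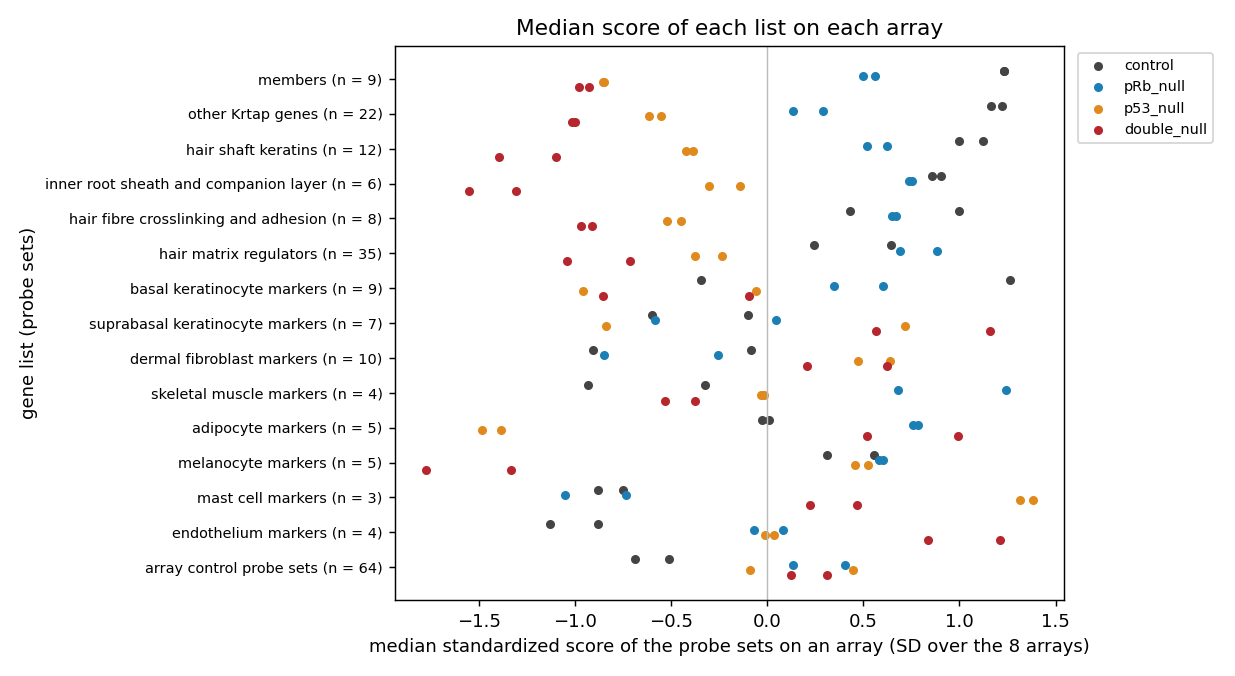
Median standardized score (horizontal axis, in SD over the 8 arrays) of each gene list (rows, with the number of probe sets) on each array, 1 point per array coloured by genotype. In every hair list the double_null arrays lie farthest left, control and pRb_null lie in either order on the right, basal markers overlap between genotypes, and the array control probe sets are lowest in control.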

How the data were processed

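RNA from whole newborn skin was hybridised to 8 arrays of 22690 probe sets. The deposited values are a standardized score per probe set: tested on the file, every row has mean 0 and SD 1 over the 8 arrays within 1e-06. RMA is the tool named in the submitters' processing notes, with no version, and it is unknown here if logs were taken before standardizing. Gene symbols came from the platform annotation: 20393 probe sets had 1 symbol, 691 several and 1606 none, and only the first kind was used for genes. All 7 members matched the RefSeq table (GRCm38.p6) by Entrez number.

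The 64 array control probe sets were left out, and the other 22626 entered a linear model (limma 3.58.1, R 4.3.3) with 1 mean per genotype, 4 residual degrees of freedom and Benjamini-Hochberg adjustment over all of them. SEs come from this fit, are shared by all comparisons of a probe set, and a call is an adjusted p under 0.05. The ordinary statistic was used because rescaling a probe set leaves it unchanged. The code was tested on simulated standardized data, which does not bear on the choice between the ordinary and the moderated test, and the moderated test called 0 probe sets in every comparison. The moderated test, quantile normalization, array medians set to 0, a replicate block, only the 2 genotypes compared, 1 probe set per gene and leaving out each array were alternatives. Counts at an unadjusted p were added after seeing the data. With 2 arrays against 2, an exact permutation test cannot give a p below 0.333, so none was run.

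The members and lists were chosen with earlier results of these data known. Named genes were the members and the 3 lowest and 3 highest other Krtap genes in double_null against control. The 10 genes most like the members' mean were named too. So were up to 4 genes per hair list with the smallest p in double_null, and list genes that were called. A few shown beside these were chosen after their values were seen: Krt84, S100a3, Hoxc13, Foxn1, Lef1, Shh and the extremes of single comparisons. Python 3.11.15 with pandas 2.3.3 served for the summaries and matplotlib 3.10.9 for the figures.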

Additional observations from a re-analysis of the deposited data

Results flagged for a closer look

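Probe sets of 2 other Krtap genes moved in opposite directions in the 2 backgrounds on every array. Krtap19-4 differed by −1.45 after pRb loss with p53 present and by 0.36 with p53 absent, a difference of 1.82 ± 0.21 that did not pass the interaction test over all probe sets (limma's ordinary test, adjusted p = 0.21). Krtap19-1 (1427800_at) differed by −0.31 after pRb loss with p53 present and by 2.20 with p53 absent, and by −0.75 and 1.76 after p53 loss with pRb present and absent. Both pairs differ by 2.51 ± 0.88 (adjusted p = 0.47), and the high double_null mean rests on scores of 0.47 and 2.23. The other probe set of Krtap19-1, 1427801_at, did not change sign. Its interaction was also above 0, at 1.62 ± 0.29 (limma's ordinary test, adjusted p = 0.31). Over the 22 other Krtap probe sets the interaction was called in 0, with 5 above and 0 below 0 at an unadjusted p under 0.05, where 4.47% of all probe sets were above and 5.98% below. The 5 were the pair of Krtap19-1, Krtap19-2, Krtap19-4 and Krtap19-5.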

How the results depend on the processing

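The counts of other Krtap probe sets called at an adjusted p were not stable. For double_null against control (13) the count was 12 with array medians set to 0 and 14 with 1 probe set per gene, but 0 with quantile normalization, the replicate block, the moderated test and only the 2 genotypes, and 0 to 1 with an array left out. For p53_null against control (1) it was 1 with 1 probe set per gene, and 0 under those 4 settings and with array medians set to 0. For double_null against pRb_null (3) it was 5 with 1 probe set per gene, 0 under those 4 settings and 0 to 1 with an array left out. Over all probe sets, those 4 settings also called 0 lower in each of these comparisons. The moderated test lowered the counts of other Krtap probe sets at an unadjusted p from 15 to 4 in pRb_null. It lowered them from 16 to 8 for double_null against pRb_null and from 9 to 2 for double_null against p53_null. The members' median differences kept their sign except for double_null against p53_null, which was 0.030 with quantile normalization. With quantile normalization it was −0.80 in pRb_null and −2.11 in double_null against control, and −1.36 for double_null against pRb_null. With array medians set to 0 it was −0.81 in pRb_null, −1.95 in p53_null and −1.40 for double_null against pRb_null. With an array left out it ran from −2.28 to −2.15 for double_null against control and from −1.57 to −1.41 for double_null against pRb_null. The replicate numbers did not pair the arrays: deviations of same-numbered arrays had r across probe sets from −0.163 to 0.197 over the 6 pairs of genotypes. The cause of these changes was not tested.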
